A study of Mus musculus with 6 samples.

Results

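The extracellular matrix genes of the fibroblast were examined as 151 accessible sites, out of 229903 tested across the genome, whose midpoints fell in 9 chromosomal windows set around 10 genes. The windows hold Col1a1, Col1a2, Col3a1, Col5a2, Fn1, Postn, Sparc, Tnc, Thbs1 and Lox, and span 40 to 210.0 kb each. Col3a1 and Col5a2 are neighbours and share 1 window. The sites were taken by position. They numbered 15 for Col1a1, 20 for Col1a2, 14 for Col3a1, 13 for Col5a2, 16 for Fn1, 5 for Postn, 14 for Sparc, 33 for Tnc, 13 for Thbs1 and 8 for Lox.

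Accessibility was measured by ATAC-Seq, in which the Tn5 transposase inserts sequencing adapters into DNA that nucleosomes leave exposed. The cells were primary mouse embryonic fibroblasts (pMEFs) on a C57bl6 background, grown in DMEM with fetal bovine serum. Lines from 3 HAT1+/+ embryos were compared with lines from 3 HAT1-/- embryos, which lack HAT1 throughout the animal. HAT1 is the cytoplasmic and nuclear histone acetyltransferase that acetylates newly made histone H4 before it is assembled into chromatin. The labels give neither litters nor the embryos' age, and the study's methods place the embryos at mid-gestation.

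Fibroblasts secrete the fibrillar collagens, whose chains fold into triple helices and assemble into the fibres of connective tissue. Glycoproteins such as fibronectin, tenascin-C and thrombospondin 1 bind those fibres and the integrins of the cell surface, and lysyl oxidase cross-links the collagen. These genes are among the most actively expressed in cultured fibroblasts and respond strongly to serum and TGF-β. Their promoters and enhancers are therefore usually open in such cells.

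The deposited values are 1 mean level per genotype and site, on a log2 scale. Levels are given here as normalized reads, which is 2 raised to that mean, and differences as the log2 level of HAT1-/- minus that of HAT1+/+. The means carry no spread between lines, so no confidence interval and no test is given here, and the depth of each library is unknown. The statements below describe 2 means, and they do not say whether a difference exceeds the spread between lines. The p-value and FDR that the authors deposited for each site were not used. In a bulk measurement a site less open in each cell and a site open in fewer cells cannot be told apart.

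The cell type was checked at the start sites of marker genes. All 8 fibroblast markers had a site near their start, with a median of 129.7 reads in HAT1+/+ and 127.7 in HAT1-/-, and Vim was highest at 626 reads. Of the fibroblast markers, Dcn (18.4 reads) and Lum (4.66 reads) were low, and Prrx1 (44.6 reads) lay below several endothelial and blood markers. The median over the start sites of coding genes was 144 reads in HAT1+/+. Skeletal muscle markers lay between 8.52 and 11.7 reads in HAT1+/+ and epithelial markers at 38.1 or below, with no site at Krt18. Endothelial markers ranged from 30.9 to 99.0 reads in HAT1+/+ and from 32.2 to 93.1 in HAT1-/-, blood markers from 8.28 to 73.0 and from 13.0 to 82.1, and 2 of 3 neural markers had a site, at most at 41.4 reads. Between genotypes, the endothelial genes Kdr (99.0 and 64.4 reads in HAT1+/+ and HAT1-/-) and Tek (70.5 and 41.1) were lower in HAT1-/- while Cdh5 (66.7 and 93.1) was higher, and the blood gene Spi1 was at 49.9 and 75.1. The part of other cell types in the results below was not tested. The targeted gene Hat1 had 207 reads at its start site in HAT1+/+ and 239 in HAT1-/-, and 1 of its 4 sites, 32.3 kb inside the gene, went from 22 to 3.41 reads, a log2 difference of -2.69.

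Before the values, the reference sequence at the start sites that differed most between genotypes is shown, with the 250 bases ahead of the annotated start. The windows come from RefSeq on GRCm38.p6, the same assembly as mm10, and are written on the strand of the gene. Capitals mark letters that matched 1 of 6 short strings searched on both strands: TGANTCA (the AP-1 site), GGAATG (TEAD), TGTGGT (RUNX), CCAAT (the CCAAT box), GGGCGG (the GC box) and TATAAA (the TATA box). None of these strings contains another. For Col3a1 the window is chr1:45311288-45311537 on the plus strand, and 225 of its bases lie in the start site whose level is given below.
Col3a1: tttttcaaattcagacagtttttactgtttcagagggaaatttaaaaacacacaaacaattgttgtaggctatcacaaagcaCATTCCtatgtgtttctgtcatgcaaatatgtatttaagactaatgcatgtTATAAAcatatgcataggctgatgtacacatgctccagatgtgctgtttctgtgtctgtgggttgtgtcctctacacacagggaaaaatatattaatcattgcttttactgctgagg
The second sequence is the window of Postn at chr3:54360857-54361106 on the plus strand, of which 157 bases lie in the Postn start site.
Postn: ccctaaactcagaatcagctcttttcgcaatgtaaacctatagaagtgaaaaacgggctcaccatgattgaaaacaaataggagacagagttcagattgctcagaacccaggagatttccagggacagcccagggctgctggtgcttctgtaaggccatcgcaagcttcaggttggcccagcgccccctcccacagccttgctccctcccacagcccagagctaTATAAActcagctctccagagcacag
For Tnc the window is chr4:64047016-64047265 on the minus strand, and all 250 bases lie in the Tnc start site.
Tnc: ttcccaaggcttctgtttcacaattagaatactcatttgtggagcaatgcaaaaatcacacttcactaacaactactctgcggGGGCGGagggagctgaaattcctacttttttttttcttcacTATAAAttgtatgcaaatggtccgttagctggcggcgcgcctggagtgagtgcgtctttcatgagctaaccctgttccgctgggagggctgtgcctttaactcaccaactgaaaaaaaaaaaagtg
The string TATAAA began 117 bases before the start in Col3a1, 26 in Postn and 126 in Tnc. It occurred in 12.4% of all 32851 promoter windows of this length. Col3a1 also held the reverse complement of GGAATG 168 bases before the start (12.6% of all windows), and Tnc held GGGCGG 167 bases before it (32.7%). A match describes the letters and does not show that a factor binds there.

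Windows were matched for 5 of the 10 genes, 7 windows in all, since Postn and Tnc have more than 1 start. The other matched genes were Col1a2 and Sparc, and Col1a1, Col5a2, Fn1, Thbs1 and Lox were not matched. The other Tnc window and those of Col1a2 and Sparc overlap an annotated exon, and they were searched but are not printed. TATAAA was found in 4 of the 7 windows, GGGCGG in 3, CCAAT in 1 and GGAATG in 1, and neither TGANTCA nor TGTGGT in any. The Tnc windows overlap, so the same TATAAA and the same GGGCGG were counted in each of them. By gene, TATAAA was in Col3a1, Postn and Tnc, and GGGCGG in Col1a2 and Tnc. Among all promoter windows CCAAT was in 33.8%, TGANTCA in 6.75% and TGTGGT in 14.0%.

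Across the 10 genes, accessibility in HAT1-/- was close to that in HAT1+/+. The 151 sites held 6015 reads in HAT1+/+ and 5680 in HAT1-/-, a log2 ratio of -0.08, which equals the ratio over all 229903 sites at this rounding. Their median difference was -0.01 against -0.06 for all sites. Of the 151 sites, 76 lay below 0 (50.3%) and 75 above, while 55.0% of all sites lay below 0. Only 2 sites were lower by 1 log2 unit or more, which is 1.32% of the members against 5.11% of all sites. In the other direction 5 sites were higher by that much, 3.31% against 2.82% of all sites. At a difference of 0.58, 14 sites were lower (9.27% against 15%) and 17 were higher (11.3% against 10.1%).

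**Figure D1:**
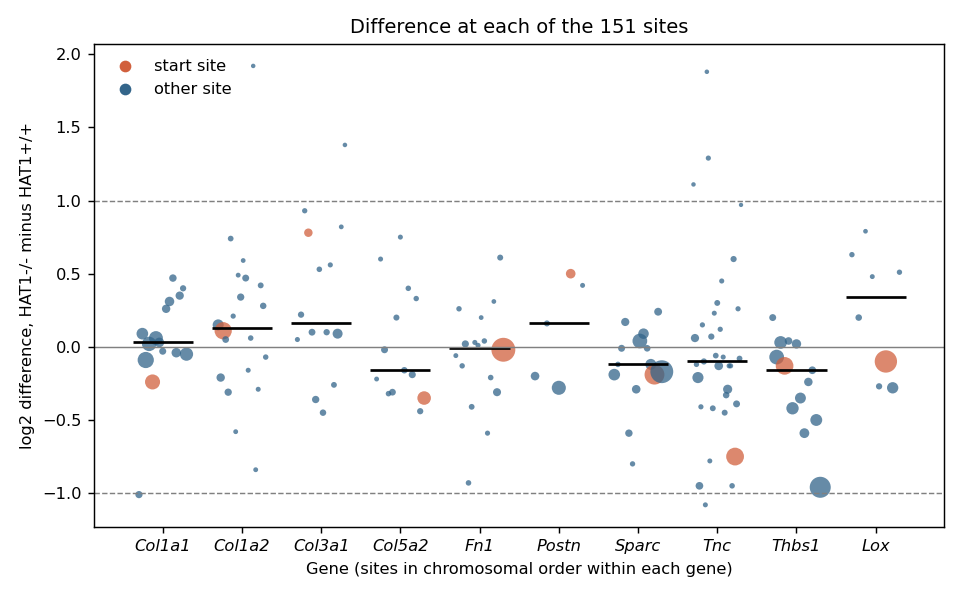
Each point is 1 of the 151 sites, with the log2 difference on the vertical axis and the genes on the horizontal axis in order of role. Point area grows with the HAT1+/+ reads, black bars are the median of each gene, and dashed lines mark a difference of 1 in either direction. The 7 sites past the dashed lines are small points, and most large points lie below 0, with those of Thbs1 and Tnc lowest.

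By role, the 4 fibrillar collagen genes together held 1994 reads over 62 sites in HAT1+/+ and 2088 in HAT1-/-, a log2 ratio of 0.07. Of their sites 38 were above 0 and 38.7% below, against 55.0% of all sites below 0. Among these genes Col1a2 (0.16) and Col3a1 (0.28) were above 0, Col1a1 (0.01) was level and Col5a2 (-0.12) was below. The 5 glycoprotein genes held 3585 and 3173 reads over 81 sites, a log2 ratio of -0.18. Of their sites 49 were below 0 (60.5%), not far from the 55.0% of all sites. Among these genes Thbs1 (-0.33), Tnc (-0.21) and Sparc (-0.12) were below 0, and Fn1 (-0.03) and Postn (0.00) were level. Lox held 436 and 419 reads over 8 sites, a ratio of -0.06. By gene, the ratio ran from -0.33 for Thbs1 to 0.28 for Col3a1, and was below 0 for 7 genes and above 0 for 3, where 71.1% of 13681 coding genes with at least 5 sites were below 0. When levels were divided by the summed reads of each genotype, 3 of the 7 were above 0, namely Fn1 (0.04), Postn (0.07) and Lox (0.02), and the other directions held.

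At the transcription start, 7 of the 10 genes were lower in HAT1-/- and 3 were higher, and 64.2% of coding start sites were lower. The start site of each of the 10 genes is here the strongest site within 1 kb of a GENCODE transcript start, and that of the coding genes in general the strongest within 1 kb of the gene's 5′ end. The median difference over the 10 genes was -0.12, against -0.07 over the 15279 protein-coding genes with such a site, of which the 5th to 95th percentile ran from -0.60 to 0.31. Per kb of site, the HAT1+/+ level ranged from 77.1 reads for Col3a1 to 288 for Fn1, against a median of 172 over coding genes. Tnc fell outside the range of coding start sites on the low side, and Col3a1 and Postn on the high side. The Postn value rests on the annotation, since RefSeq places a further start upstream, and with RefSeq starts included its start site was another, at -0.28. The other 4 genes with RefSeq windows kept their values.

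**Figure D2:**
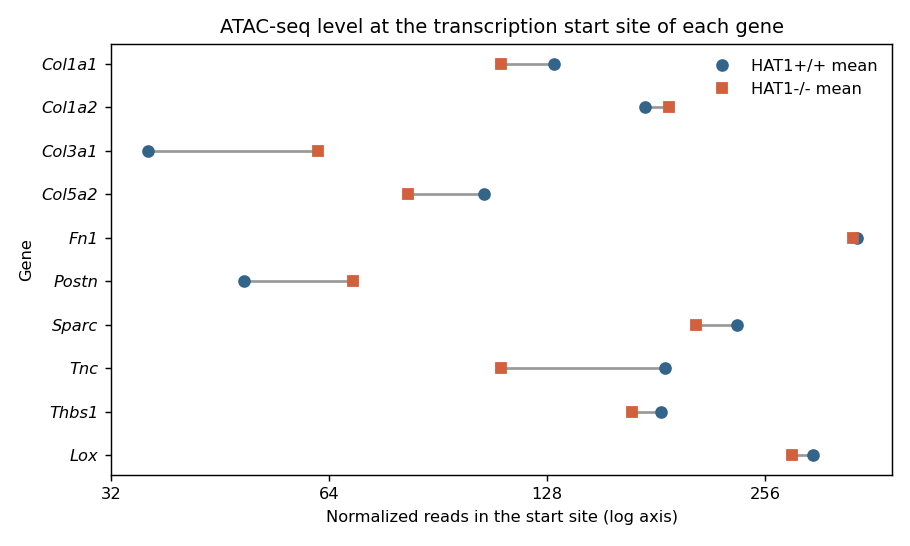
Normalized reads in the start site of each gene on a log axis, with circles for the HAT1+/+ mean and squares for the HAT1-/- mean. The long lines are Col3a1 (36.0 to 61.8 reads), Postn (48.8 to 69.1) and Tnc (186 to 111), and the markers of Fn1 (343 and 338) nearly coincide.

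Type I collagen, the main fibre of skin, bone and tendon, is made of the chains of Col1a1 and Col1a2. Col1a1 lies at chr11:94936224-94953042 on the plus strand. Its 15 sites were all above the level of 16 mean reads and held 992 reads in HAT1+/+ and 1001 in HAT1-/-, a ratio of 0.01. The start site, at chr11:94935984-94936595, went from 131 to 111 reads, a difference of -0.24. The strongest site of the gene was 7.20 kb upstream, at 153 reads in HAT1+/+ and 144 in HAT1-/- (-0.09). Around the start the pattern was flat, since the neighbouring site 0.93 kb inside the gene went from 111 to 115 reads (0.06) and the upstream sites at 8.22 and 2.43 kb differed by 0.09 and 0.02. Of the 5 intronic sites, 4 were higher in HAT1-/-, by 0.26 to 0.47, and the other was at -0.04. The farthest upstream site, at chr11:94921220-94921432, was lowest of the gene, at 23.9 reads in HAT1+/+ and 11.9 in HAT1-/-, a difference of -1.01. Among all sites of 16 to 32 mean reads, 3.78% were as low.

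Col1a2, at chr6:4504814-4541544 on the plus strand, was higher in HAT1-/- in its window, though over the gene and 50 kb on each side the ratio was 0.02. Its 20 sites held 485 reads in HAT1+/+ and 541 in HAT1-/-, a ratio of 0.16, and 94.5% of the coding genes with at least 5 sites had a ratio as low. The coding genes were measured over their span and 10 kb on each side, not over a set window. The start site, also the strongest, went from 175 to 189 reads (0.11). It held 36.1% of the gene's reads, and the other 19 sites together had a ratio of 0.18. The largest difference of all 151 sites was in an intron of Col1a2 at chr6:4539157-4539399, 34.5 kb from the start, where the level was 4.38 reads in HAT1+/+ and 16.6 in HAT1-/-, a difference of 1.92. This is a weak site in both genotypes, yet 0.0299% of all sites of 8 to 16 mean reads were as high. An intronic site 3.74 kb from the start went from 12.2 to 20.4 reads (0.74), and the lowest site, downstream, from 6.50 to 3.63 (-0.84).

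Col3a1 encodes type III collagen, which forms fine fibres with type I collagen in skin and vessels, and had the highest ratio of the 10 genes. It lies at chr1:45311538-45349706 on the plus strand. The 14 sites held 246 reads in HAT1+/+ and 297 in HAT1-/-, a ratio of 0.28, and 98.5% of coding genes had a ratio as low. All but 3 sites were above 0, so 21.4% were below, against 55.0% of all sites. The start site at chr1:45311313-45311779, whose promoter letters are printed above, went from 36.0 to 61.8 reads. That difference of 0.78 was reached by 0.861% of all sites of 32 to 64 mean reads and by 0.851% of coding start sites. A site 1.99 kb upstream went from 9.32 to 17.8 reads (0.93). Farther from the start the weak sites were mixed, with an intronic site at -0.36 (25.1 to 19.6 reads) and an exonic site at -0.45 (17.8 to 13.0). The strongest Col3a1 site, 44.6 kb from the start and past the end of the gene, was almost level at 53.1 and 56.5 reads (0.09). Close to it, the site at chr1:45359266-45359416 went from 4.63 to 12.0 reads (1.38). Without the start site the ratio of the gene was 0.17.

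Col5a2 encodes a chain of type V collagen, which sits inside type I fibres and limits their width. It lies next to Col3a1, at chr1:45374321-45503282 on the minus strand, and did not share its direction at the start. The start site went from 105 to 82.1 reads, a difference of -0.35, and a weaker site beside it from 16 to 11.8 (-0.44), the lowest of the gene. The 13 sites held 271 and 249 reads, a ratio of -0.12, and without the start site the ratio was 0.01. The largest gain was in an intron 24 kb from the start, from 7.46 to 12.5 reads (0.75). No Col5a2 site passed a difference of 1 in either direction.

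Fibronectin, the product of Fn1, assembles into fibrils that bind integrins and template the collagen network. Fn1 lies at chr1:71585520-71653200 on the minus strand. Its start site was the strongest of all 151 sites, with 343 reads in HAT1+/+ and 338 in HAT1-/-, a difference of -0.02. It held 65.9% of the reads of the 16 Fn1 sites, and the gene had a ratio of -0.03. The other sites were weak. The lowest, downstream of the gene, went from 10.9 to 5.74 reads (-0.93), and the highest, in an exon 7.76 kb from the start, from 14.0 to 21.4 (0.61). In all, 8 sites lay below 0 and 8 above, where 55.0% of all tested sites lay below 0.

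Periostin, a secreted protein that binds collagen and fibronectin, is encoded by Postn at chr3:54361109-54391037 on the plus strand. The gene had opposite differences at its GENCODE start and at its stronger upstream sites. At the start site, chr3:54360950-54361339, the level went from 48.8 to 69.1 reads, a difference of 0.50 that 5.40% of sites of 32 to 64 mean reads reached. The strongest site, 2.31 kb upstream, went from 114 to 93.7 reads (-0.28), and another 7.72 kb upstream from 37.5 to 32.7 (-0.20). A weaker site 3.37 kb upstream went from 14.4 to 16.1 reads (0.16). The 5 Postn sites therefore summed to nearly the same number, 222 and 221 reads, a ratio of 0.00. The strongest site lies at chr3:54358500-54359095 and its end overlaps the other RefSeq promoter window, chr3:54359017-54359266 on the plus strand. In that window none of the 6 strings was found. It is printed for contrast with the start window given above.
Postn, upstream window: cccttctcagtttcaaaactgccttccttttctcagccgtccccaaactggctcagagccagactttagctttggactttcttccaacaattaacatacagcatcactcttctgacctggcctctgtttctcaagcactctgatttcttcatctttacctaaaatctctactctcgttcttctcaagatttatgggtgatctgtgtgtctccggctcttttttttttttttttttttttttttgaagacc

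SPARC, a secreted collagen-binding protein also called osteonectin, is encoded by Sparc at chr11:55394500-55423183 on the minus strand. It was slightly lower in HAT1-/- at its strong sites. The strongest, 5.20 kb upstream of the annotated gene start, went from 313 to 278 reads (-0.17), and the start site from 234 to 205 (-0.19). This start site lies 3.23 kb inside the gene, at the start of another annotated transcript. The 14 sites held 1061 and 979 reads, a ratio of -0.12, and 10 lay below 0 (71.4%, against 55.0% of all sites). The largest intronic site, 17.1 kb from the gene start, was level at 125 and 129 reads (0.04). The lowest site went from 9.51 to 5.46 reads (-0.80) and the highest from 30.1 to 35.5 (0.24). Of coding genes, 35.0% had a ratio as low.

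Tnc encodes tenascin-C, a large glycoprotein that loosens cell adhesion and is made in development and in wounds. It lies at chr4:63959785-64047015 on the minus strand and had the lowest start site of the 10 genes. There, at chr4:64046708-64047546, the level went from 186 to 111 reads, a difference of -0.75, which keeps 59.5% of the HAT1+/+ reads. Among all sites of 128 or more mean reads 0.441% were as low, and among coding start sites 2.91%. The site next to it, 1.38 kb upstream, went from 21.6 to 16.5 reads (-0.39). The rest of the gene together differed less, since the 32 other sites held 494 and 479 reads, a ratio of -0.04. With the start site the ratio was -0.21. Over the 10 Tnc sites of at least 16 mean reads, start site included, it was -0.38.

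Within Tnc the weak sites differed most in both directions, and 4 of the 7 sites past a difference of 1 were here. Tnc holds 33 of the 151 sites, and only 10 of its sites have 16 or more mean reads. Of all sites under 8 mean reads, 9.64% were lower and 8.24% higher by 1 or more. At 8 to 16 mean reads these shares were 5.28% and 2.80%. An intronic site at chr4:63981422-63981601 went from 7.41 to 3.51 reads (-1.08), and a downstream site at chr4:63950128-63950326 from 4.32 to 9.32 (1.11). A pair of adjacent intronic sites, 53.4 and 53.2 kb from the start, was higher in HAT1-/- in both members. The first went from 4.59 to 16.9 reads (1.88), which 0.0399% of sites of 8 to 16 mean reads reached. The second went from 8.52 to 20.8 reads (1.29), which 0.799% reached. Neighbouring sites did not share this, as the next site toward the start was at -0.78 (7.26 to 4.23 reads). The letters of the pair are shown on the plus strand of GRCm38.p6, at chr4:63993508-63993672 and chr4:63993715-63994006, with capitals for CCAAT read on the minus strand. They were the only matches among the 6 strings in these 2 sites.
Tnc intron, first site: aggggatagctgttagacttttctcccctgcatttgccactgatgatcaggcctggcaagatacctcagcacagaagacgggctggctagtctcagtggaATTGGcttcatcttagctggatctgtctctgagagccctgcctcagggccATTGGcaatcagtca
Tnc intron, second site: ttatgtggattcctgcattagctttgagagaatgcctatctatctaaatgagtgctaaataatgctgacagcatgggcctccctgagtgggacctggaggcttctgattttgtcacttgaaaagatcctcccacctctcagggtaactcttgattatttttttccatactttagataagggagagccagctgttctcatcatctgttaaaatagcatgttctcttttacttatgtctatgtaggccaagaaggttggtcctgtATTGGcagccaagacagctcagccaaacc

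Thrombospondin 1 is a secreted glycoprotein that binds matrix and cell-surface receptors and activates latent TGF-β. Its gene Thbs1, at chr2:118111876-118127133 on the plus strand, had the lowest ratio of the 10. The 13 sites, all with 16 or more mean reads, held 1103 reads in HAT1+/+ and 876 in HAT1-/-, a ratio of -0.33, and 5.07% of coding genes had a ratio as low. Around the start the levels were close. The start site went from 184 to 168 reads (-0.13), and the sites 1.29 and 0.54 kb upstream went from 125 to 119 (-0.07) and from 91.1 to 93.1 (0.03). The highest Thbs1 site, 9.50 kb upstream, went from 21.6 to 24.8 reads (0.20).

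Lower levels appeared along the body of Thbs1 and past its end. The exonic site 1.34 kb from the start went from 85.6 to 64 reads (-0.42), that at 5.77 kb from 50.9 to 33.8 (-0.59) and that at 13.6 kb from 78.8 to 55.7 (-0.50). The strongest Thbs1 site lies just past the gene's end, at chr2:118127365-118128618 in the interval between Thbs1 and Fsip1. It went from 263 reads in HAT1+/+ to 135 in HAT1-/-, a difference of -0.96, and 0.180% of all sites of 128 or more mean reads were as low. Split at 1 kb past the start, a division chosen after the values were seen, the 5 sites up to there had a ratio of -0.05 and the 8 beyond it -0.56. Without the strongest site the ratio of those beyond was -0.35. One site in the body, 4.48 kb from the start, was level at 45.9 and 46.5 reads (0.02).

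**Figure D3:**
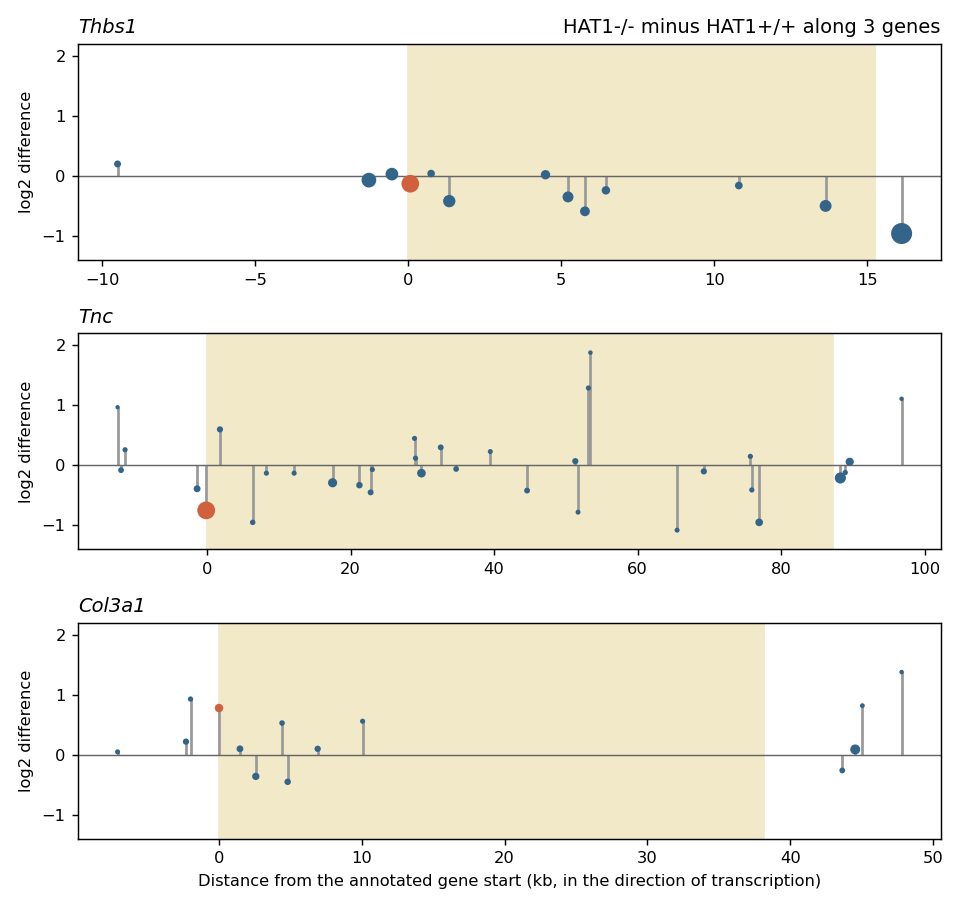
The log2 difference of each site of Thbs1, Tnc and Col3a1 against distance from the annotated gene start in kb, in the direction of transcription. The shaded stretch is the gene, orange points are start sites and point area grows with HAT1+/+ reads. In Thbs1 the largest point, past the gene's end, is lowest at -0.96, in Tnc the start site stands at -0.75 and a pair of small points at 1.88 and 1.29, and in Col3a1 most points are above 0.

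Lysyl oxidase, encoded by Lox on chromosome 18, oxidises lysines of collagen and elastin so that the fibres can be cross-linked. Its start site held 68.5% of the reads of the gene and went from 298 in HAT1+/+ to 278 in HAT1-/-, a difference of -0.10. An upstream site 5.78 kb from the start went from 71.0 to 58.5 reads (-0.28). The 4 downstream sites were higher in HAT1-/-, by 0.20 to 0.79, all at 21.1 reads or fewer. The median difference over the 8 sites was 0.34 while the ratio of summed reads was -0.06, so the sign of the Lox value depended on whether sites or reads were counted.

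The size of a difference depended on the level of the site. Over all sites of under 8 mean reads the 5th to 95th percentile ran from -1.31 to 1.21, and over those of 128 or more from -0.38 to 0.21. Set against the range of its own level class, 4 member sites (2.65%) lay below and 7 (4.64%) above, compared with 4.93% and 4.86% of all sites. The 4 below were the Col1a1 upstream site, the Thbs1 site past the gene's end, the Tnc start site, and a Tnc intronic site that went from 28.2 to 14.6 reads (-0.95). The 7 above were 3 of Col3a1, 2 of Col1a2 and the Tnc pair, with none from Sparc, Fn1, Postn, Col5a2, Thbs1, Col1a1 or Lox. Of the 9 sites with 128 or more mean reads, 8 were below 0, and they held 2149 reads in HAT1+/+ and 1846 in HAT1-/-, a ratio of -0.22. Of all 11100 sites of that class 63.7% were below 0, with a ratio of -0.05. The sum over the 9 includes the Thbs1 site past the gene's end (263 to 135 reads) and the Tnc start site (186 to 111). By median difference the 9 sites were at -0.13, against -0.06 for the whole class. The 71 sites under 16 mean reads had a ratio of 0.15, from 658 and 728 reads, against -0.05 for all sites under that level. The weakest class did not share this. The 22 sites under 8 mean reads had a ratio of -0.05, against -0.02 for all sites of that class. The 49 sites of 8 to 16 mean reads had 0.20, against -0.06. Of the 7 sites past a difference of 1, 6 had under 16 mean reads and the Col1a1 site had 23.9 reads in HAT1+/+.

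**Figure D4:**
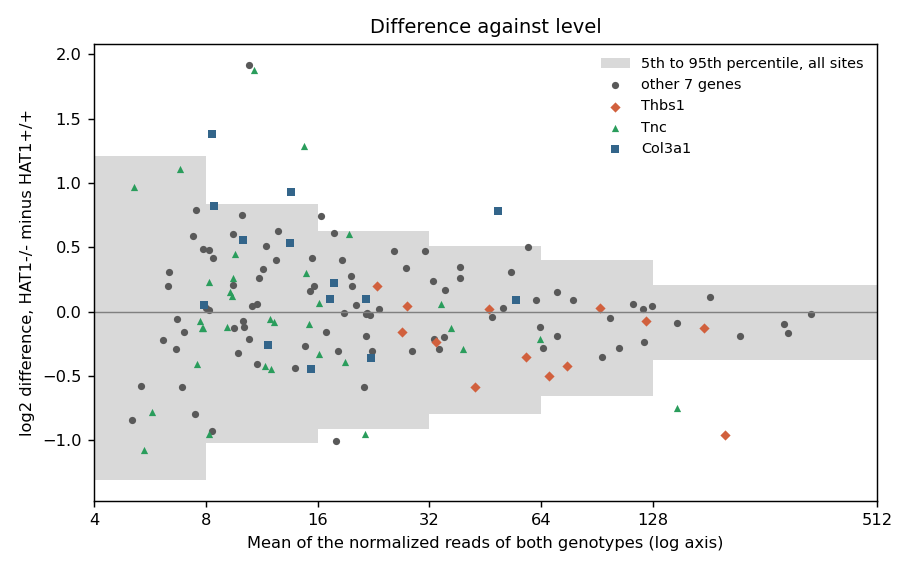
The log2 difference of each site against the mean of its normalized reads in both genotypes, on a log axis. The grey band is the 5th to 95th percentile of all sites in each level class. Diamonds are Thbs1, triangles Tnc and squares Col3a1, and below the band at 128 or more reads stand the Thbs1 site past the gene's end (-0.96) and the Tnc start site (-0.75).

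By position, introns held 57 of the sites with a ratio of 0.02, start sites of any transcript 28 with -0.07, upstream stretches 21 with -0.08, downstream stretches 30 with -0.20 and exons 15 with -0.22. The downstream and exonic values contain the Thbs1 sites given above. In GC content the member sites had a median of 48.8% against 50.1% for all sites. The windows ranged from 36.5% GC around Col3a1 and Col5a2 to 51.8% around Col1a1.

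In the central 200 bp of the sites, TGANTCA was present in 34 of 151 (22.5%, against 23.0% of all sites). GGAATG was present in 17.2% against 15.6%, CCAAT in 25.8% against 21.7%, TGTGGT in 15.9% against 19.6%, GGGCGG in 6.62% against 8.66% and TATAAA in 5.96% against 7.20%. By gene, Tnc, with 33 of the 151 sites, held 11 of the 26 with GGAATG. Col3a1, with 14 sites, held 7 of the 39 with CCAAT. These genes were named after the counts were seen.

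None of the 151 sites lay in a domain of lowered accessibility, defined here as a run of 25-site windows with a mean difference below -0.58, joined where no more than 1 Mb apart. There were 165 such domains, with 2.74% of all sites, and they need not equal the domains that the study listed. The distance from a window to its nearest domain ran from 2.79 Mb for Fn1 to 56.4 Mb for Col1a1. The 25-site means around the members ran from -0.22 in Sparc to 0.24 in Col1a2, and the 5th to 95th percentile over all sites from -0.36 to 0.17. In the Col3a1 and Col5a2 window the mean reached 0.24 and in the Lox window 0.17. In the Tnc window it was as low as -0.21 and in the Thbs1 window -0.16.

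Other genes of the matrix were taken from a list of 67, grouped by role, and measured over the gene and 10 kb on each side. By the ratio of summed reads 58 were below 0 and 9 above, with a median of -0.12. After subtracting the median of all sites these counts were 52 and 15, and the coding genes are given without that shift. Of the 62 with at least 5 sites, 57 (91.9%) were below 0, against 71.1% of coding genes with at least 5 sites. The medians of these 2 sets were -0.13 and -0.07. None of those 62 was lower or higher by 0.58 or more, compared with 1.10% lower and 0.0292% higher among coding genes, and the 1 gene past that value among all 67, Lum, has 2 sites. The elastic fibre genes had a median of -0.19 (8 of 9 below 0), the matricellular genes -0.19 (6 of 6), the proteases and inhibitors -0.16 (7 of 8), the basement membrane genes -0.13 (8 of 9) and the collagen processing genes -0.12 (11 of 13). The other fibrillar and associated collagens had -0.10 (5 of 6), the beaded type VI collagens -0.09 (3 of 3), the receptors -0.09 (7 of 8) and the proteoglycans -0.06 (3 of 5). Gene values are not all separate, since Col4a1 and Col4a2 of the basement membrane group had the same start site (194 to 144 reads, -0.43).

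The 5 lowest of these genes with at least 5 sites were Ccn2, Loxl4, Mmp13, Nid2 and Timp3. Ccn2, a matricellular protein induced by TGF-β, held 548 reads in HAT1+/+ and 425 in HAT1-/- (-0.37), and its start site went from 385 to 284 (-0.44). Loxl4, a relative of lysyl oxidase, had a ratio of -0.34 (285 and 225 reads), which was 0.15 over the gene alone. The collagenase gene Mmp13 had one of -0.30 (113 and 92.5 reads), and -1.69 over the gene alone. Of its 5 sites only 1 was lower by 1 or more, and its start site went from 26.9 to 24.6 reads (-0.13). With sites of at least 16 mean reads the Mmp13 ratio was -0.23. Nid2, which links laminin to collagen IV, had -0.29 with a start site at 391 and 286 reads (-0.45), and was at -0.01 over the gene alone. Timp3, an inhibitor of matrix proteases, had -0.28 with a start site at 149 and 111 reads (-0.42).

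At the other end stood Col14a1, P4hb, Lama4, Mfap2 and Ddr2. Col14a1, a collagen that sits on the surface of fibrils, held 575 reads in HAT1+/+ and 659 in HAT1-/- (0.20), with a start site at 32.7 and 44.0 reads (0.43). The other 4 lay between 0.01 and 0.04, and Ddr2 was at -0.07 over the gene alone. The proteoglycan genes Lum and Dcn, named after their values were seen, had under 5 sites each and ratios of 0.69 and 0.39. The Lum start site went from 4.66 to 11.4 reads (1.29) and the Dcn start site from 18.4 to 30.7 (0.74).

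**Figure D5:**
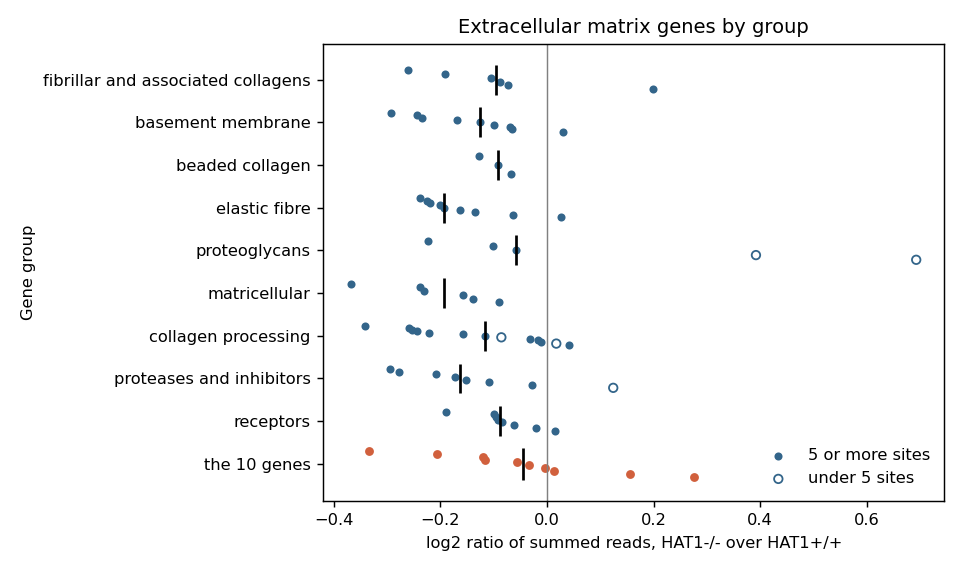
The log2 ratio of summed reads, HAT1-/- over HAT1+/+, of the 67 other matrix genes by group, and of the 10 genes in the bottom row. Filled points have 5 or more sites, open points fewer, and vertical bars are group medians. Most points lie between -0.37 and 0.04, Lum is farthest right at 0.69, and the 10 genes run from -0.33 (Thbs1) to 0.28 (Col3a1).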

How the data were processed

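ATAC-Seq of 3 HAT1+/+ and 3 HAT1-/- pMEF lines was analysed from 1 deposited table of 229903 sites. The authors aligned reads to mm10 with Bowtie2 in the ENCODE pipeline, and used MACS2 for peaks and DiffBind 2.14.0 for the comparison. The normalization and the rule for merging peaks are not given in the sources used here. The authors deposited the mean level per genotype and site on the log2 scale, and these columns were used as the authors' means. Other columns hold the authors' own fold change, p-value and FDR for each site and were not used. Depth per line is unknown.

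Sites were assigned by midpoint, and gene positions came from GENCODE vM21 on GRCm38, whose chromosome lengths hold every site. Summed reads are sums of 2 raised to the log2 level. A site was counted as past the fold at a log2 difference of 1, or 0.58. Promoter letters were searched in the 250 bases before the start, shorter than first planned, so that no printed window held an exon. Windows that overlap an annotated exon were searched but not printed. Scripts ran in Python 3.11.15 with numpy 2.4.6, pandas 2.3.3 and matplotlib 3.10.9 and were tested on simulated data. The genes, lists and windows were chosen with earlier results of these data known. Named were all 10 genes with the start, strongest, lowest and highest site of each, every site past the fold, and the 5 lowest and 5 highest of the other matrix genes with at least 5 sites.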

Additional observations from a re-analysis of the deposited data

How the results depend on the processing

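Only genotype means were used, so leaving out each line in turn was not possible. No paired analysis was possible because the means carry no replicate numbers. Counts of sites past a fold were small and moved with several choices. The 2 lower sites became 1 with sites of at least 16 mean reads, with the gene span alone or with 10 kb, after subtracting the median of all sites, after dividing by the summed reads, without Col1a1 and without Tnc, and 4 with 50 kb. The 5 higher sites became 0 with at least 16 mean reads, 3 with the gene span alone and 2 without Tnc, and were 6 after subtracting the median or with 50 kb and 7 after dividing by the summed reads. At a fold of 0.58 there were 14 lower and 17 higher, and at 1.5 there were 0 and 2. The log2 ratio of summed reads, -0.08, was 0.031 as the mean of the site differences. Among the genes, the direction of the summed ratio held under all 9 alternatives for Col1a2, Col3a1, Sparc, Tnc and Thbs1 (Col1a2 0.02 to 0.23, Col3a1 0.16 to 0.35, Thbs1 -0.33 to -0.16, Tnc -0.38 to -0.01). It held under 3 for Postn and Lox, 6 for Fn1, 7 for Col5a2 and 8 for Col1a1. Some alternatives kept the same sites of a gene and so could not move its value. For Thbs1 the level of 16 mean reads and the 10 kb span both kept its 13 sites. For Col3a1 and Sparc the 10 kb span kept the 14 sites of each. Summed over sites within 3 kb, the start difference was 0.38 for Col3a1, 0.00 for Postn, -0.49 for Tnc and 0.03 for Col1a1. With RefSeq starts included, a choice made after seeing the data, the start site of Postn was at -0.28. The causes were not tested. The median of the 67 other matrix genes was -0.13 to -0.06.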
